A study of Homo sapiens with 18 samples.

Results

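Amino acid transporter genes were described in 3 triple-negative breast cancer cell lines treated with nicotinamide (NAM). The genes were all protein-coding members of 7 solute carrier families whose symbols begin with SLC1A, SLC3A, SLC6A, SLC7A, SLC36A, SLC38A or SLC43A. This choice by name gave 59 of the 60676 genes in the deposited table, comprising 7 SLC1A, 2 SLC3A, 19 SLC6A, 13 SLC7A, 4 SLC36A, 11 SLC38A and 3 SLC43A genes. RNA was sequenced from the lines MDA-MB-231, MDA-MB-468 and BT20, each line as 3 untreated control libraries and 3 libraries after 20 mM NAM for 48 h, 18 libraries in all. NAM is an amide form of vitamin B3 and a precursor of NAD+. Each line is 1 established culture and stands for no wider class of tumours. The medium was RPMI for BT20 and DMEM for both MDA-MB lines, and the part of the medium in a difference from BT20 cannot be told apart from that of the line. The methods allow the control RNA to have been taken either before treatment or after 48 h, and on the former reading the NAM effect cannot be told apart from 48 h of culture. The labels do not state whether replicates were separate cultures, so the p-values measure only the spread between these libraries.

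Amino acids cross membranes on carriers of several unrelated families, and the members differ in what they carry and in what drives them. SLC1A and SLC38A proteins couple uptake to sodium, SLC6A proteins mostly to sodium and chloride, and some SLC36A proteins to protons. Most SLC7A light chains exchange amino acids and reach the cell surface only when joined to a heavy chain of the SLC3A family. In tumour cells SLC1A5, SLC7A5 and SLC7A11 are known for the supply of glutamine, leucine and cystine, respectively. Several of these genes are known targets of ATF4, a transcription factor made when amino acids run short, which binds composite C/EBP-ATF sites in DNA.

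Such sites were looked for in the promoters that RefSeq gives on GRCh38.p14, as 250 bases before and 50 bases after each transcription start, because ATF4 and its partners are known to act through them. The motif searched was TGATGNAA on both strands. Of the members, 44 had a promoter entry and 6 (13.6%) held the motif, against 4.46% of the 27305 genes with an entry. The stretches of 30 bases around each match are given here 5′ to 3′ on the strand of the gene, with the match in capitals. Of these, SLC1A4, SLC38A1, SLC3A2 and SLC7A1 passed the test with NAM in BT20, while SLC1A3 and SLC1A5 did not. SLC38A2, SLC7A5, SLC6A9, SLC3A1, SLC43A1 and SLC7A11 were called higher there too and are not among the matches. Whether the motif goes with the response to NAM was not tested.
SLC1A4 (chr2:64989381-64989410, plus strand): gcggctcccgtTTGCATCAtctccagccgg
SLC1A5 (chr19:46784893-46784922, minus strand): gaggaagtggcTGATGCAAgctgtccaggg
SLC1A3 (chr5:36596357-36596386, plus strand): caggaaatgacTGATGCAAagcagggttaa
SLC3A2 (chr11:62881719-62881748, plus strand): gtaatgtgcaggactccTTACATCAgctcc
SLC38A1 (chr12:46266502-46266531, minus strand): tcagacccgaaTGATGAAAagggatcagct
SLC7A1 (chr13:29595663-29595692, minus strand): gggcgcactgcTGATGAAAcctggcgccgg
The match lay at bases -7 to 1 from the start in SLC1A4, at -97 to -90 in SLC1A5, at -220 to -213 in SLC1A3, at -4 to 4 in SLC38A1, at 8 to 15 in SLC7A1 and at 38 to 45 in SLC3A2. SLC1A4, SLC1A5 and SLC1A3 shared the form that reads TGATGCAA on one strand. SLC38A1 and SLC7A1 shared TGATGAAA. In SLC1A5, SLC3A2, SLC38A1 and SLC1A4 the RefSeq start used lay inside the span of the gene by GENCODE v44, not at its end. That span was 46774883 to 46788594 for SLC1A5 and 62856004 to 62888880 for SLC3A2. It was 46183063 to 46270017 for SLC38A1 and 64988477 to 65023865 for SLC1A4. The whole 250 bases upstream of this inner start of SLC1A5, the most abundant member with a site, were as follows.
SLC1A5 (chr19:46784815-46785064, minus strand): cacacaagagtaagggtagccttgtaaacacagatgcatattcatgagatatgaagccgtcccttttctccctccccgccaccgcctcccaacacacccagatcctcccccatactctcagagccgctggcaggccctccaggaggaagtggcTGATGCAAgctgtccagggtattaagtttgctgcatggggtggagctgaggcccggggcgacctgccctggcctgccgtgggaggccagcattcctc
A match is a description of letters in this window and no binding was measured. SLC7A11 had no promoter entry.

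Levels are deposited FPKM, fragment counts scaled to gene length and library size, which can be compared between genes. Library totals recovered from the steps of the FPKM values ran from 10864143 to 21755168 reads. A gene was tested where at least 3 of the libraries compared had an FPKM of at least 1, and it was called higher or lower at a Benjamini-Hochberg adjusted p under 0.05 over all genes tested with limma and an absolute difference above 0.58 in log2(FPKM + 1). The epithelial marker EPCAM was between 86.5 and 155 FPKM in the BT20 and MDA-MB-468 controls and at most 3.42 in those of MDA-MB-231. There the mesenchymal marker VIM was at 217 or more. The epithelial CDH1 and the mesenchymal ZEB1 went the same way. The epithelial KRT8, KRT18 and KRT19 were lower in the MDA-MB-231 controls too but still at 69.3 to 178 FPKM. The mesenchymal CDH2 was at most 0.274 there, and FN1 was higher in the MDA-MB-468 controls (22.5 to 26.9) than in those of MDA-MB-231 (6.11 to 10.3). PGR was at 0 in every library, ESR1 reached 1.87 FPKM in BT20 and ERBB2 31.7. The leukocyte marker PTPRC stayed at or under 0.0357 FPKM. Replicate 1 of both MDA-MB-231 groups stood apart and was the lowest library for 15 of the 23 members tested there, in the controls and with NAM alike. Across all genes tested the same library was lowest for 53.1% and 54.8%. In the BT20 NAM group it was replicate 2 that was lowest for 15 of 24 members tested (62.5%), against 33.2% of all genes tested, and among the BT20 controls replicate 1 was lowest for 15 as well (43.6% of all genes).

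Of the 59 members, 32 reached an FPKM of 1 in some library and 27 in none. The members under 1 throughout comprised 11 SLC6A genes, 8 SLC7A genes, 4 SLC38A genes, SLC1A2, SLC1A7, SLC36A2 and SLC36A3. The highest of them was SLC38A4 with at most 0.77 FPKM, and SLC7A13 had no read in any library. The carriers of dopamine (SLC6A3), serotonin (SLC6A4) and, in kidney and gut, of neutral amino acids (SLC6A19) were among these. In all 9 control libraries 17 members had an FPKM of at least 1. At 10 or more in every control library of a line were 7 members in MDA-MB-231, 11 in MDA-MB-468 and 9 in BT20. SLC6A16 reached an FPKM of 1 in fewer than 3 libraries and was not tested among the controls.

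**Figure D1:**
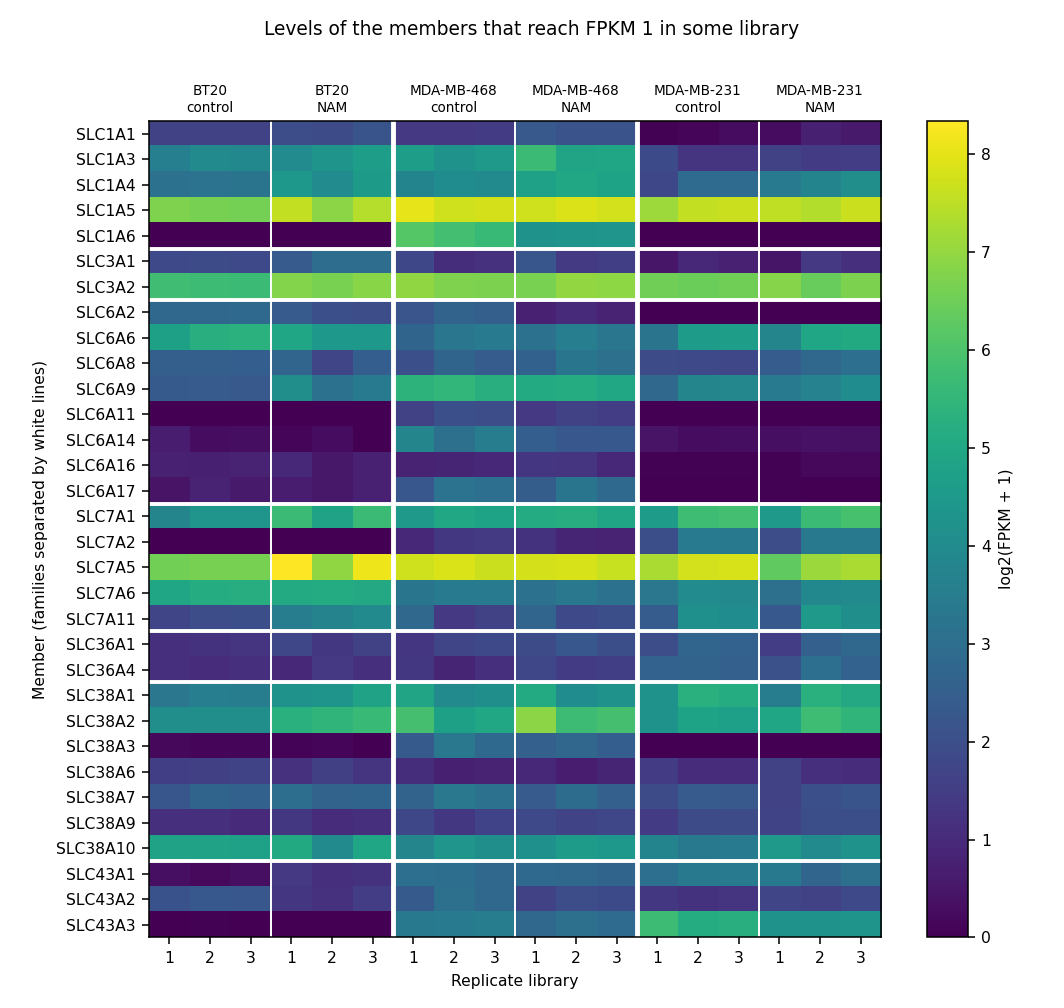
Colour gives log2(FPKM + 1) of the 32 members that reached FPKM 1, one row a member and one column a library, with families parted by white lines. SLC1A5, SLC7A5 and SLC3A2 had the highest group means in every group, while SLC1A6 stands out in the 6 MDA-MB-468 libraries and is dark in the rest.

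The level of these families rested on 3 genes. SLC7A5, the light chain of the large neutral amino acid exchanger, averaged 171 FPKM over the 9 controls. SLC1A5, the sodium-dependent exchanger of glutamine and other neutral amino acids, averaged 169 FPKM. SLC3A2, the heavy chain that SLC7A5 and SLC7A11 both need, averaged 84.1 FPKM. Together they made up 53.8% to 67.3% of the summed FPKM of all 59 members in the control libraries. Each of the 3 led its family in every line. By the same mean over 9 controls, highest in the other families were SLC38A2, a sodium-coupled carrier of small neutral amino acids, at 26.1 FPKM, the taurine carrier SLC6A6 at 20.2, SLC43A3 at 17.0 and the proton-coupled SLC36A1 at 2.67, but the leader differed between lines. In the SLC38A family SLC38A10 led in BT20 (mean 26.7 FPKM), SLC38A2 in MDA-MB-468 (38.1) and SLC38A1 in MDA-MB-231 (30.5). In the SLC6A family the glycine carrier SLC6A9 led in MDA-MB-468 (40.7) and SLC6A6 in BT20 (33.9) and MDA-MB-231 (18.7). SLC43A2 led its family in BT20 (3.64) and SLC36A4 its own in MDA-MB-231 (5.15). The summed FPKM of all members was 427, 457 and 453 in the BT20 controls. It was 574, 777 and 802 in the MDA-MB-231 controls and 951, 879.6 and 843 in those of MDA-MB-468. With NAM it was 921, 585 and 877 in BT20, and no BT20 control library overlapped these. The sums with NAM were 555, 696 and 779.9 in MDA-MB-231 and 949, 924 and 846 in MDA-MB-468, overlapping their controls. In bulk RNA, fewer cells that express a gene and less of its RNA per cell cannot be told apart.

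**Figure D2:**
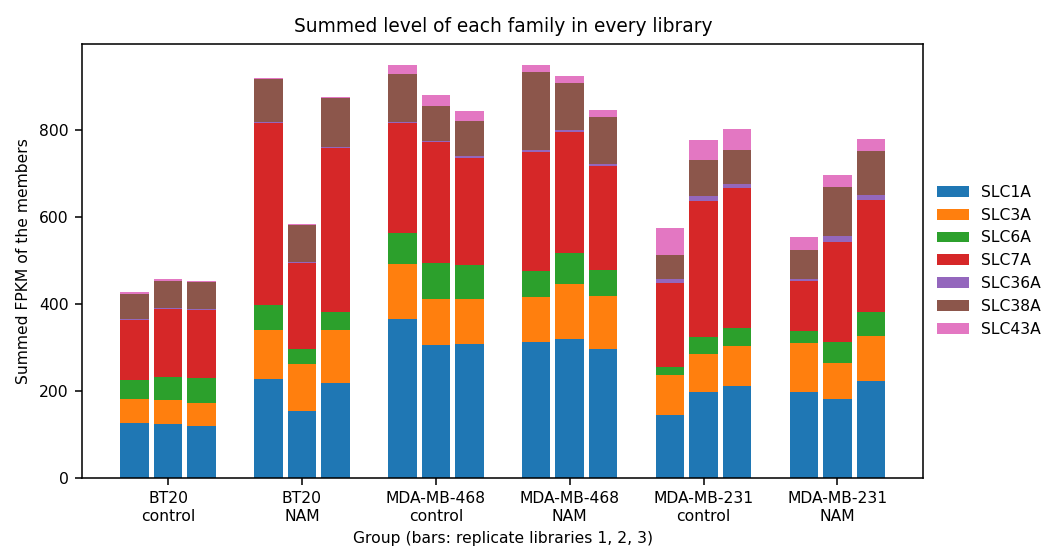
Stacked bars give the FPKM summed over the members of each family, one bar a library in the order of replicates 1, 2 and 3. The BT20 NAM bars (921, 585 and 877) stand above the BT20 control bars (427 to 457), and replicate 2 is the lowest of them.

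The controls were compared to ask how the lines differ in these carriers before treatment. MDA-MB-468 stood above BT20 in 19 of the 31 members tested and below it in 4, where 22.6% and 24% of all 16449 genes tested were called higher and lower. The median difference of the 31 was 0.70 in log2(FPKM + 1), and that of all genes -0.02. Since 14 of the 31 were under FPKM 1 in some control and could pass the filter through the lines where they were high, the 17 members at 1 or more in all 9 controls were counted apart, and 10 were higher in MDA-MB-468 and 3 lower. The share of all genes called under that stricter filter was not computed, so the counts of the 17 have no background beside them. Among the higher members were the main carriers. SLC3A2 had 54.2, 51.8 and 50.3 FPKM in BT20 and 123, 104 and 102 in MDA-MB-468, without overlap, a difference of 0.99 (SE 0.12, adjusted p = 9.42e-05). SLC7A5 had 94.0, 98.5 and 97.9 FPKM in BT20 against 214, 233 and 205 in MDA-MB-468 (1.00, SE 0.24, adjusted p = 0.00681). SLC1A5 had 104, 98.7 and 95.7 FPKM against 257, 212 and 220.3 (1.03, SE 0.23, adjusted p = 0.00444). In each of the 3 genes every MDA-MB-468 control was above every BT20 control.

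The widest gaps between these lines were in carriers that BT20 hardly expressed. SLC1A6, a glutamate carrier known from Purkinje cells of the cerebellum, had 70.2, 57.0 and 49.0 FPKM in the MDA-MB-468 controls, from 6294, 6385 and 6375 reads, and a single read in 1 of the 3 BT20 controls. SLC43A3, which carries purine nucleobases although its family is that of leucine carriers, had 9.31, 9.54 and 10.3 FPKM in MDA-MB-468 and 2 reads in all in BT20. SLC6A14, a carrier of neutral and cationic amino acids, had 12.8, 7.44 and 10.7 FPKM against 0.57, 0.20 and 0.24 in BT20. SLC38A3, a glutamine carrier known from liver and brain, had 4.17, 9.07 and 6.18 FPKM in MDA-MB-468 and 0.14, 0.10 and 0.11 in BT20. SLC6A9, the glycine carrier, was present in both, with 40.5, 44.7 and 36.9 FPKM in MDA-MB-468 and 4.11, 4.25 and 3.998 in BT20 (3.11, SE 0.21, adjusted p = 2.64e-06). SLC43A1, a leucine carrier, had 7.33, 7.03 and 5.94 FPKM in MDA-MB-468 and 0.26, 0.17 and 0.26 in BT20. All 6 were called, but SLC1A6, SLC6A14 and SLC38A3 reached an FPKM of 1 in no control outside MDA-MB-468, passed the filter through that line and so had to differ. For the genes near 0 the fitted difference depends on the added 1 FPKM. In the opposite direction, BT20 was higher in SLC6A6 (25.5, 37.0 and 39.2 FPKM against 5.40, 8.68 and 9.47) and in SLC7A6, a light chain that exchanges cationic for neutral amino acids (28.8, 34.4 and 35.9 FPKM against 8.37, 9.76 and 9.90). SLC7A6 shares 44.4% of its exon bases with SLC7A6OS on the opposite strand, and the strand setting of the counting was not given in the sources used here.

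MDA-MB-231 stood above BT20 in 13 members and below it in 7, against 25.5% and 24.5% of all genes (13 higher and 11 lower by limma-voom on the recovered reads). Of the 17 members present in all controls, 8 were higher in MDA-MB-231 and 4 lower, again without a share of all genes under that filter. SLC43A3 had 52.0, 34.7 and 36.9 FPKM in MDA-MB-231, which made it the widest gap here, and SLC43A1 followed with 7.32, 9.32 and 10.1. SLC7A2, a carrier of arginine and lysine, had 3.00, 9.76 and 9.29 FPKM in MDA-MB-231 and 2 reads in all in the BT20 controls. SLC7A11, the light chain of the cystine and glutamate exchanger, had 4.35, 17.0 and 15.6 FPKM in MDA-MB-231 and 2.36, 2.91 and 3.04 in BT20, with a difference of 1.86 (SE 0.44, adjusted p = 0.00499). The MDA-MB-231 controls all lay above those of BT20, and replicate 1 was the low one. BT20 in turn held SLC6A2, the noradrenaline carrier, at 5.85, 6.02 and 6.22 FPKM where MDA-MB-231 had no read, and SLC1A3, a glutamate carrier of glia, at 11.2, 14.5 and 13.7 FPKM against 2.62, 1.46 and 1.41. The difference in SLC1A3 was -2.09 (SE 0.20, adjusted p = 1.55e-05).

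Of the 31 members, 7 were higher in MDA-MB-231 than in MDA-MB-468 and 12 lower, against 24.2% and 22.3% of all genes. With MDA-MB-468 control replicate 2 or 3 left out, 12 of 26 tested were called in place of 19. Over all genes, 3977 were called higher and 3661 lower with every library. These counts were 3265 and 3235 without replicate 2 and 3269 and 3166 without replicate 3. The 6 widest gaps were all in genes low in MDA-MB-231, of which SLC1A6, SLC6A14, SLC38A3 and SLC6A17 reached an FPKM of 1 in the MDA-MB-468 controls alone and had to differ. SLC1A6 and SLC6A17, a carrier of synaptic vesicles, had no read in the MDA-MB-231 controls, and SLC6A17 had 3.83, 8.08 and 7.31 FPKM in MDA-MB-468. SLC6A2 too had no read in MDA-MB-231 and 3.64, 5.33 and 4.70 FPKM in MDA-MB-468, while SLC38A3 had 1 read in all. SLC6A14 was at 0.37, 0.21 and 0.24 FPKM, and SLC1A3 differed by -2.795 (SE 0.20, adjusted p = 2.34e-06). The 3 leading carriers were not called between these lines. Their differences had 95% intervals of -0.68 to 0.42 for SLC7A5, -0.90 to 0.15 for SLC1A5 and -0.52 to 0.01 for SLC3A2. SLC7A11 was higher in MDA-MB-231 than in MDA-MB-468, whose controls had 5.82, 1.61 and 2.12 FPKM, by 1.75 (SE 0.44, adjusted p = 0.00762), and replicate 1 of MDA-MB-468 overlapped replicate 1 of MDA-MB-231. Scaling moved these comparisons as a whole. Without quantile normalization the median of all genes for MDA-MB-231 against BT20 went from 0.05 to -0.13, and 13 members were called higher and 9 lower.

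NAM was then compared with control within each line. BT20 gave the most calls. Of 24 members tested, 10 were higher and 2 lower, where 7.12% of all 14965 genes tested were called higher and 8.13% lower. The median difference of the 24 was 0.44 in log2(FPKM + 1), and that of all genes 0.02. By family, 3 of 4 tested SLC7A genes rose, as did both SLC3A genes, 2 of 6 SLC38A, 1 of 4 SLC1A, 1 of 4 SLC6A and 1 of 2 SLC43A genes, while neither of the SLC36A genes was called. One of the 10, SLC43A1, passed the filter only through its NAM libraries and so had to differ. Without NAM replicate 3 the calls fell to 7 from 12, and with no filter on low values to 6. Without NAM replicate 2 they remained 12 in number. Over all genes, 1066 were called higher and 1216 lower with every library. These counts were 284 and 359 without NAM replicate 3, 484 and 361 with no filter, and 1036 and 1348 without NAM replicate 2.

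**Figure D3:**
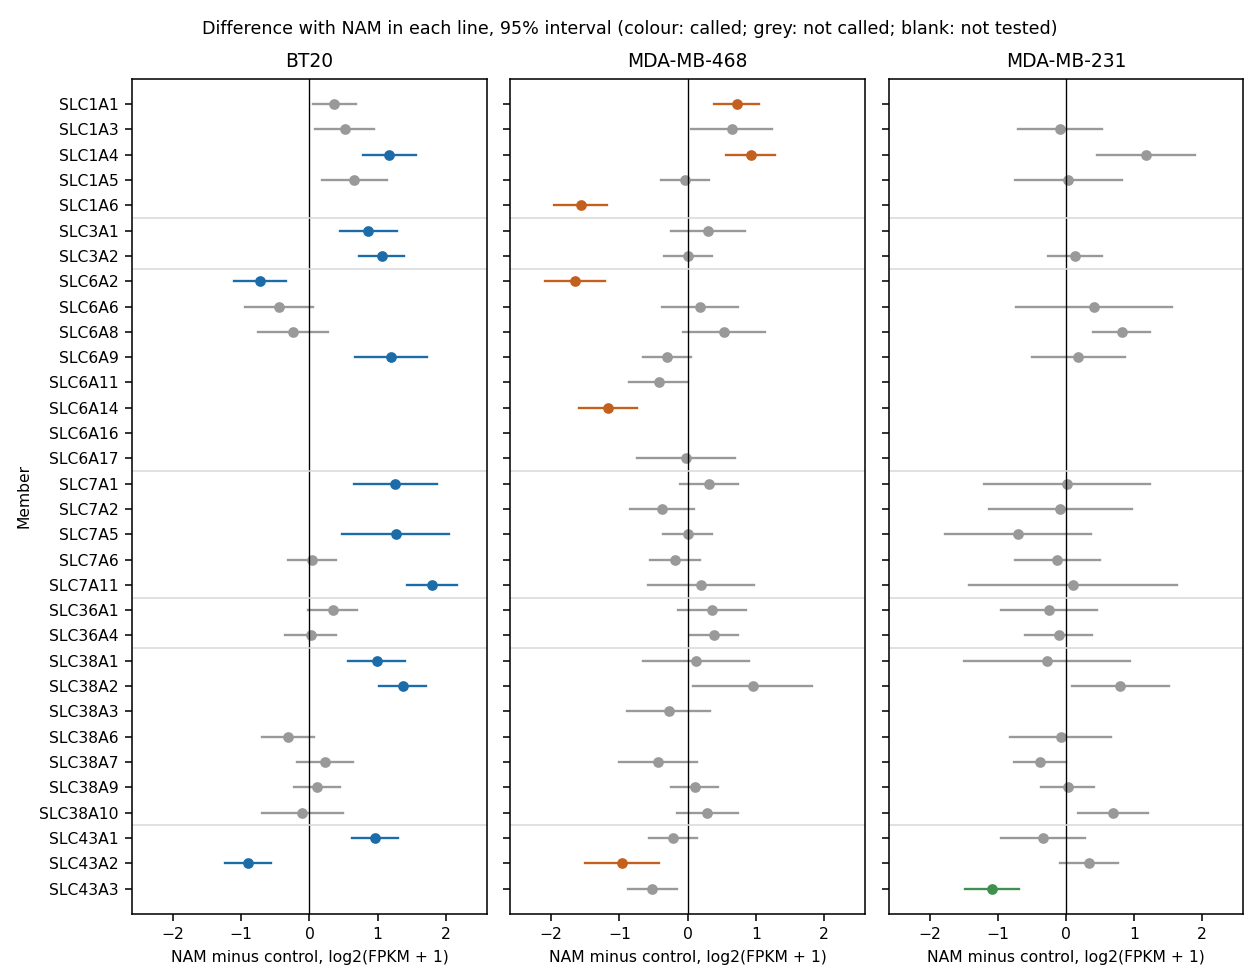
Points give the difference of NAM minus control in log2(FPKM + 1) for each tested member, with its 95% interval, in 1 panel a line. Coloured points were called, which were 1 in MDA-MB-231, 6 in MDA-MB-468 and 12 in BT20. Members not tested in a line are blank.

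SLC3A2 and 2 of its light chains, SLC7A11 and SLC7A5, rose in BT20, while SLC7A6, another light chain that joins SLC3A2, was not called (0.04, 95% interval -0.31 to 0.39). SLC7A11 had 2.36, 2.91 and 3.04 FPKM in the controls and 10.5, 12.2 and 14.4 with NAM. The groups lay far apart, and the difference of 1.80 (SE 0.16, adjusted p = 0.00137) was the largest of any member in this line in log2(FPKM + 1). That rank depends on the added 1 FPKM, since SLC43A1, near 0 in the controls, reached 2.55 in an alternative fit and SLC7A11 at most 2.14. SLC3A2 went from 54.2, 51.8 and 50.3 FPKM to 109, 101 and 115, again with no overlap (1.06, SE 0.15, adjusted p = 0.00427). SLC7A5 had 94.0, 98.5 and 97.9 FPKM in the controls and 322, 124 and 278 with NAM. Each NAM library was above the controls, with replicate 2 nearest to them, and the difference of 1.26 (SE 0.35, adjusted p = 0.0382) was no longer called when any library other than NAM replicate 2 was left out. It also lost its call with a pseudocount of 0.1 FPKM (adjusted p = 0.0586) and with no filter (0.184). The FPKM of SLC7A5 relative to that of SLC3A2 was 1.73, 1.90 and 1.95 in the controls and 2.96, 1.23 and 2.42 with NAM, so that it moved both ways. For SLC7A11 the ratio was 0.0435, 0.0562 and 0.0604 in the controls and 0.0968, 0.121 and 0.125 with NAM, and the groups did not overlap.

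SLC7A1, a carrier of arginine and lysine that needs no heavy chain, also rose. Its controls had 12.8, 19.4 and 19.3 FPKM and the NAM libraries 50.1, 26.7 and 50.8. Replicate 2 was again the lowest NAM library, and the call (1.26, SE 0.27, adjusted p = 0.0173) did not hold with control replicate 1 or NAM replicate 3 left out, or with no filter on low values (adjusted p = 0.104). SLC3A1, the heavy chain of the renal cystine carrier, had 2.61, 2.85 and 2.56 FPKM in the controls and 4.27, 6.86 and 6.81 with NAM (0.86, SE 0.19, adjusted p = 0.0173), a call lost in 4 of the 6 fits that each left out 1 library and with no filter (0.0654). Of its exon bases, 26.9% are shared with another gene on the same strand and 29.4% with PREPL on the opposite strand.

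Among the sodium-coupled carriers of small neutral amino acids, 4 rose in BT20. SLC38A2 had 16.4, 16.5 and 16.5 FPKM in the controls and 38.1, 42.7 and 48.6 with NAM. Its controls agreed closely and every NAM library was far above them (1.37, SE 0.15, adjusted p = 0.00248). SLC38A1, its close relative, went from 8.87, 10.8 and 10.7 FPKM to 17.9, 18.8 and 26.6 (0.98, SE 0.19, adjusted p = 0.0111). SLC1A4, which exchanges alanine, serine and cysteine, had 7.73, 8.13 and 8.19 FPKM in the controls and 20.7, 15.4 and 22.2 with NAM, again lowest in replicate 2 (1.17, SE 0.17, adjusted p = 0.00530). SLC6A9 had 4.11, 4.25 and 3.998 FPKM in the controls and 16.4, 7.83 and 9.90 with NAM (1.19, SE 0.24, adjusted p = 0.0131). For none of the 4 did a control library reach a NAM library, and each call held with any 1 library left out. With no filter on low values the calls of SLC38A1 (adjusted p = 0.0512) and SLC6A9 (0.0801) were lost. SLC1A5 also had every NAM library (188, 117 and 169 FPKM) above every control, and its difference of 0.66 missed the threshold (95% interval 0.19 to 1.13, adjusted p = 0.0589).

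Leucine carriers of the SLC43A family moved both ways in BT20. SLC43A1 had 13, 11 and 15 reads in the controls and 78, 90 and 83 with NAM, or 0.26, 0.17 and 0.26 FPKM against 1.61, 1.17 and 1.35 (0.96, SE 0.15, adjusted p = 0.00613). That call was lost without control replicate 2 or 3, and the gene no longer passed the filter once any NAM library was left out. SLC43A2, which mediates facilitated transport of leucine and related amino acids, fell from 3.29, 3.87 and 3.75 FPKM to 1.52, 1.27 and 1.88 (-0.90, SE 0.15, adjusted p = 0.00710). SLC6A2 was the other member to fall, from 5.85, 6.02 and 6.22 FPKM to 4.25, 3.10 and 2.8998 (-0.73, SE 0.17, adjusted p = 0.0227). Both groups of both genes were apart, although the SLC6A2 call was lost in 4 of the 6 fits that left out a library and with no filter (adjusted p = 0.0609). By GENCODE v44, SLC6A2 shares 28.6% of its exon bases with another gene on the same strand. Its FPKM values imply a shorter exon length than the 8043 bases given there, so whether the overlap applied in the counting is not known.

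The remaining 12 tested members were not called in BT20, with differences from -0.45 to 0.66. SLC6A6 had 25.5, 37.0 and 39.2 FPKM in the controls and 29.8, 20.9 and 20.9 with NAM, so that the groups overlapped.

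**Figure D4:**
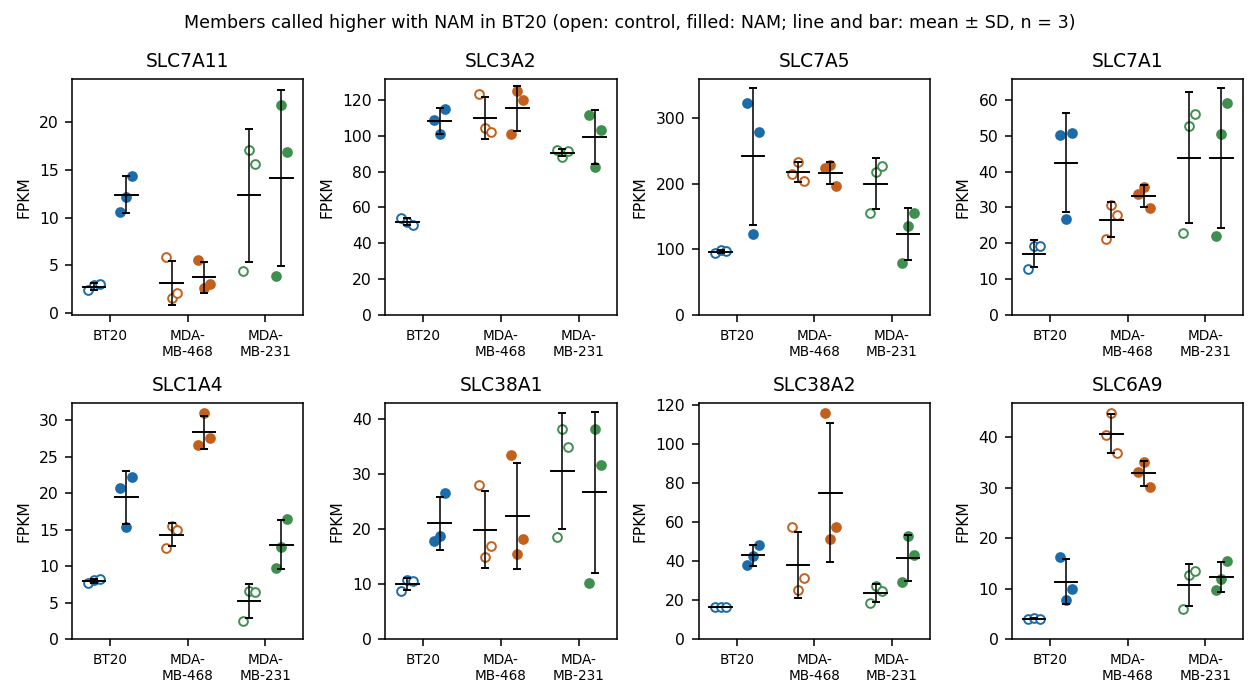
FPKM of 8 members called higher with NAM in BT20, in every library of the 3 lines (open points control, filled points NAM), with the mean and SD of 3 libraries. SLC3A2 rose from a mean of 52.1 to 108 FPKM in BT20 and lay between 82.8 and 125 in the other lines with or without NAM, while every NAM point of SLC1A4 lies above the controls of its line.

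In MDA-MB-468, 2 of 30 tested members rose and 4 fell, against 3.5% of the 14752 genes tested higher and 5.36% lower. The median difference of the 30 was 0.00 in log2(FPKM + 1), and that of all genes 0.02. The calls fell from 6 to 2 without control replicate 3 or NAM replicate 3 and to 3 without NAM replicate 2. Over all genes, 517 were called higher and 791 lower with every library. These counts were 71 and 187 without control replicate 3, 72 and 268 without NAM replicate 3, and 165 and 419 without NAM replicate 2. Glutamate carriers of the SLC1A family moved in opposite directions. SLC1A6 fell from 70.2, 57.0 and 49.0 FPKM to 18.4, 18.8 and 19.6, with NAM libraries within a narrow band (-1.57, SE 0.17, adjusted p = 0.00156). SLC1A1, the glutamate carrier of epithelia and neurons, rose from 1.61, 1.60 and 1.76 FPKM to 3.97, 3.43 and 3.39 (0.72, SE 0.14, adjusted p = 0.0183). SLC1A4 rose from 12.5, 15.5 and 14.9 FPKM to 26.6, 30.9 and 27.5 (0.93, SE 0.16, adjusted p = 0.00983). Groups were apart in all of these. The SLC1A1 call was lost in 4 of the 6 fits without a library and that of SLC1A4 in 3, and the SLC1A6 call in none.

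The other falls in MDA-MB-468 were in SLC6A and SLC43A genes. SLC6A2 fell from 3.64, 5.33 and 4.70 FPKM to 0.71, 1.02 and 0.73, the largest fall of any member (-1.66, SE 0.19, adjusted p = 0.00204), and held its call without any 1 library. SLC6A14 fell from 12.8, 7.44 and 10.7 FPKM to 4.61, 3.81 and 3.94 (-1.17, SE 0.19, adjusted p = 0.00794), a call lost without control replicate 3 or NAM replicate 3. SLC43A2 fell from 4.16, 7.38 and 6.04 FPKM to 2.12, 2.93 and 2.63 (-0.96, SE 0.24, adjusted p = 0.0426) and lost its call in 5 of the 6 fits without a library and with no filter (adjusted p = 0.122). In none of the 3 genes did the groups overlap.

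The carriers that led in BT20 were not called in MDA-MB-468. SLC3A2 had 123, 104 and 102 FPKM in the controls and 101, 125 and 119.9 with NAM, and its difference of 0.01 had a 95% interval of -0.34 to 0.36. SLC7A5 had 214, 233 and 205 FPKM against 224, 228 and 196, a difference of 0.00 (95% interval -0.36 to 0.36). For SLC7A11, with 5.82, 1.61 and 2.12 FPKM against 5.60, 2.62 and 3.03, replicate 1 was the high library in both groups and the interval was wide, from -0.58 to 0.98. By the correlation rule given below, replicate numbers were taken to pair the libraries of this line. Control 3 nevertheless correlated more with NAM 2 (0.437) than with NAM 3 (0.128). With the replicate as a block 4 members rose and 4 fell, where 7.32% of all genes were called higher and 8.03% lower. The members added were SLC38A2, with 57.5, 25.5 and 31.3 FPKM in the controls and 116, 51.5 and 57.8 with NAM (0.95, adjusted p = 0.00138 with the block and 0.173 without it), and SLC1A3, with 23.9, 18.6 and 21.8 FPKM against 50.7, 28.1 and 28.8 (0.65, adjusted p = 0.0221 with the block and 0.172 without it). In both genes each NAM library was above the control of its own number. With replicate 1 of both groups left out, a choice made after seeing the data, 3 members rose and 4 fell, against 7.92% and 8.26% of all genes. SLC38A2 was the third to rise there (0.90, SE 0.15, adjusted p = 0.00449).

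**Figure D5:**
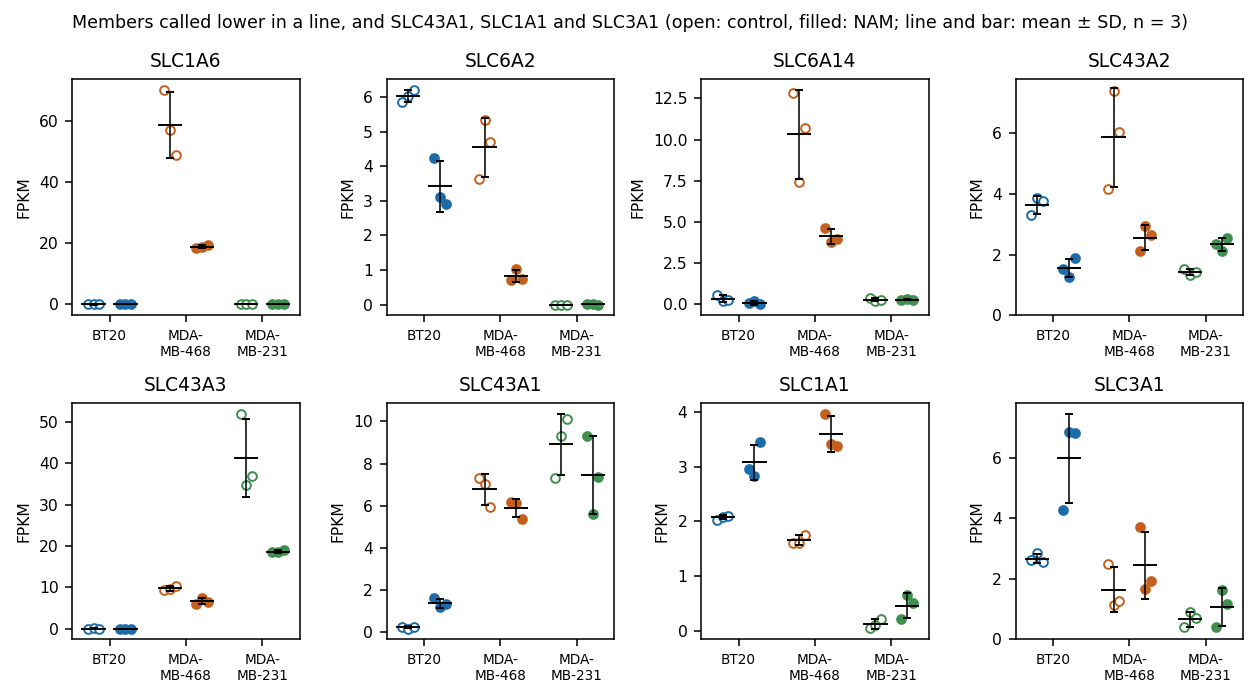
FPKM of the 5 members called lower with NAM in some line (SLC1A6, SLC6A2, SLC6A14, SLC43A2 and SLC43A3) and of SLC43A1, SLC1A1 and SLC3A1, in every library (open points control, filled points NAM), with the mean and SD of 3 libraries. SLC1A6 fell from 49.0 to 70.2 FPKM down to 18.4 to 19.6 in MDA-MB-468 and was near 0 in the other lines.

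MDA-MB-231 gave the fewest calls. No member of the 23 tested was called higher and 1 was called lower by limma, against 0.829% and 1.09% of the 13869 genes tested. At an unadjusted p under 0.05 there were 4 higher and 1 lower. The median difference of the 23 was 0.02 in log2(FPKM + 1), and that of all genes -0.01. The member that fell was SLC43A3, from 52.0, 34.7 and 36.9 FPKM to 18.4, 18.4 and 19.1 (-1.09, SE 0.17, adjusted p = 0.0353). Every NAM library was well under every control, but the call was lost in 5 of the 6 fits without a library, and without quantile normalization, with median scaling and with limma-voom. Without replicate 2 or 3 of either group, limma called no gene at all, so the losses there are not particular to SLC43A3. SLC43A3 shares 29.9% of its exon bases with another gene on the same strand.

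Replicate numbers were taken to pair the libraries of MDA-MB-231 by the same rule, although control 2 correlated more with NAM 3 (0.688) than with NAM 2 (0.616). With the replicate as a block 4 members rose and 2 fell, where 8.62% of all genes were called higher and 7.26% lower. SLC1A4 had 2.53, 6.63 and 6.47 FPKM in the controls and 9.79, 12.6 and 16.4 with NAM (1.18, adjusted p = 0.0151 with the block and 0.103 without it). All its NAM libraries were above all its controls, as they were for SLC38A2 (18.6, 27.5 and 25.0 FPKM against 29.4, 53.0 and 43.2, adjusted p = 0.0187 with the block and 0.209 without it). SLC38A10, an intracellular member of its family, had 12.4, 9.43 and 9.61 FPKM against 21.3, 14.9 and 18.2 (0.69, adjusted p = 0.0175 with the block and 0.143 without it). SLC6A8, the creatine carrier, had 2.79, 2.58 and 2.39 FPKM against 4.37, 6.002 and 7.22 (0.82, adjusted p = 0.0221 with the block and 0.0701 without it). SLC7A5 fell with the block, from 155, 218 and 227 FPKM to 78.8, 135 and 156, by 0.70 in log2(FPKM + 1) (adjusted p = 0.0215 with the block and 0.446 without it). Its groups met at replicate 1 of the controls, while within each number the NAM library was the lower one. SLC7A11 was not called in either fit, with 4.35, 17.0 and 15.6 FPKM in the controls and 3.90, 21.8 and 16.8 with NAM, and a 95% interval of -1.41 to 1.63.

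With replicate 1 of both MDA-MB-231 groups left out, again a choice made after seeing the data, 4 members rose and 2 fell, against 7.05% and 6.75% of all genes. SLC1A4 (0.94, SE 0.14, adjusted p = 0.0112), SLC38A2 (0.86, SE 0.15, adjusted p = 0.0146), SLC38A10 (0.67, SE 0.12, adjusted p = 0.0162) and SLC6A8 (0.97, SE 0.12, adjusted p = 0.00812) were those that rose. SLC43A3 (-0.91, SE 0.09, adjusted p = 0.00517) and SLC43A1 (-0.64, SE 0.15, adjusted p = 0.0330) fell. This fit has 2 libraries in each group.

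SLC1A4 was the member whose NAM libraries all lay above all controls in each of the 3 lines, which held for no other. Its difference was 1.18 in MDA-MB-231, where it passed with the block and not without it, 0.93 in MDA-MB-468 and 1.17 in BT20. The test of a difference between lines did not pass for it (adjusted p = 0.782 by the limma interaction test, 0.493 with the block), which does not show that the responses were equal. SLC38A2 likewise lay above the control of the same number in all 9 pairs, with differences of 1.37, 0.95 and 0.80, and an interaction adjusted p of 0.625 (0.0462 with the block).

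Whether the lines differ in their response was tested by the line-by-treatment interaction over all 18 libraries. Of 31 members tested, 8 were called, against 9.36% of all 17784 genes tested, and with the replicate block 15, against 22% of all genes. For SLC3A2 (adjusted p = 0.00114) the response differed from that of BT20 by -1.13 in MDA-MB-468 (SE 0.18, adjusted p = 0.00130) and by -1.02 in MDA-MB-231 (SE 0.18, adjusted p = 0.00409). For SLC6A9 (0.0204) the same differences were -1.55 (SE 0.35, adjusted p = 0.0134) and -1.08 (SE 0.35, adjusted p = 0.0821). For SLC43A1 (0.00838), near 0 in the BT20 controls, they were -1.09 (SE 0.25, adjusted p = 0.0166) and -1.20 (SE 0.25, adjusted p = 0.0112). SLC43A2 (0.00645) fell in BT20 and MDA-MB-468 and was not called in MDA-MB-231, where it had 1.53, 1.32 and 1.43 FPKM in the controls and 2.34, 2.13 and 2.55 with NAM, every NAM library above every control. SLC1A6 (1.45e-05), SLC6A14 (0.00756), SLC6A2 (0.000329) and SLC43A3 (0.00352) also differed, but a gene near 0 in a line cannot fall there. SLC1A6 and SLC6A14 were near 0 in BT20 and MDA-MB-231, SLC6A2 in MDA-MB-231 and SLC43A3 in BT20. SLC7A11 and SLC7A5 missed the threshold (0.148 and 0.0598) and passed with the block (0.000254 and 0.0117). SLC36A1, SLC36A4, the GABA carrier SLC6A11, SLC6A17, SLC7A2 and SLC7A6 were called with NAM in no line, with the block or without it. The same held for SLC38A3, SLC38A6, SLC38A7 and SLC38A9, the last a sensor of arginine in the lysosome.

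Other genes of amino acid supply were counted from lists of the pathway. Of 25 genes of the amino acid response, the programme that ATF4 drives, 23 were tested in BT20, where 16 rose and none fell, against 7.12% of all genes called higher and 8.13% lower. The largest rises were in NIBAN1, a stress-induced protein (2.596 in log2(FPKM + 1), adjusted p = 0.000601), CHAC1, which degrades glutathione (2.37, 0.000601), and the transcription factors DDIT3 (2.35, 0.00149) and ATF3 (2.22, 0.00195). NIBAN1, counted among the 16, had a control mean of 0.313 FPKM, passed the filter only through its NAM libraries and so had to differ. ATF4 itself went from a mean of 95.2 ± 13.9 to 171 ± 6.75 FPKM (SD, n = 3; 0.90, adjusted p = 0.00679 by limma). In MDA-MB-468, of 24 tested, CHAC1 (0.74, adjusted p = 0.0474) and ATF3 (0.73, 0.0177) rose and the proline enzyme PYCR1 fell (-0.59, 0.0436), against 3.5% of all genes higher and 5.36% lower, and with the replicate block DDIT3 rose as well, against 7.32% and 8.03%. In MDA-MB-231 limma called 0 of 22 (6 higher at an unadjusted p under 0.05), and with the replicate block 6 rose, which were ATF3, DDIT3, TRIB3, CHAC1, SESN2 and CEBPG, against 8.62% of all genes higher.

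Of 24 genes of amino acid sensing upstream of mTORC1, 21 were tested in BT20 and 2 rose, a share near the 7.12% of all genes. They were SESN2, a leucine sensor (1.55, adjusted p = 0.00349), and RRAGD, a Rag GTPase (0.86, 0.0119). In this list limma called none in the other lines without the block (4 higher and 1 lower in MDA-MB-468 and 1 higher in MDA-MB-231 at an unadjusted p under 0.05). With the block SESN3 rose in MDA-MB-468 (1 of 23) and SESN2 in MDA-MB-231 (1 of 21), against 7.32% and 8.62% of all genes higher. Of 12 other amino acid and peptide carriers, 7 were tested in MDA-MB-468, where the peptide carriers SLC15A3 (-1.56, adjusted p = 0.00226) and SLC15A2 (-0.78, 0.0127) fell. Of all genes, 5.36% were called lower there. SLC15A2 had a mean of 0.501 FPKM with NAM, passed the filter only through the controls and so had to differ. In the other lines limma called none of 5 (1 lower in each at an unadjusted p under 0.05), and with the block SLC15A4 fell in MDA-MB-231, against 7.26% of all genes lower. Of 11 genes of glutathione synthesis and turnover, for which SLC7A11 supplies cystine, 9 were tested in BT20. There CHAC1 and GCLM, a subunit of the rate-limiting enzyme (0.82, adjusted p = 0.00911), rose. GGT6, which the authors list among enzymes that degrade glutathione, fell (-0.90, 0.0126). Of all genes, 7.12% were called higher and 8.13% lower in this line. CHAC1 is also on the amino acid response list, as is SESN2. GGT6 fell in MDA-MB-468 too (-1.03, 0.0192) and CHAC1 rose there as above, of 9 tested, joined by CHAC2 with the block. The shares of all genes there were 3.5% higher and 5.36% lower, and 7.32% and 8.03% with the block. In MDA-MB-231 limma called 0 of 7 glutathione genes (3 higher at an unadjusted p under 0.05), and with the block GSR, GPX4 and CHAC1 rose, against 8.62% of all genes higher.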

How the data were processed

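Libraries were made by the authors with a stranded TruSeq total RNA kit. The reads went through cutadapt 2.8, TopHat2 2.1.1 (genome GRCh38.p13) and HTSeq 0.11.3 for counting, per the submitters' processing notes, and the strand setting of the counting was not given in the sources used here. The authors deposited FPKM values computed with Ensembl gene lengths and cufflinks. Ensembl IDs were matched to symbols with GENCODE v44 (60357 of 60676). The members and gene lists were chosen with earlier results of these data known. Whole reads were recovered from the FPKM steps for all 39935 genes above 0 (tolerance 0.01 reads). The median library had 16640628 reads.

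Tests used limma 3.58.1 in R 4.3.3 on quantile-normalized log2(FPKM + 1), with a pseudocount of 1 FPKM, in genes that reached FPKM 1 in 3 or more libraries, and Benjamini-Hochberg adjustment over all genes tested. The value of 1 added understates the change of low genes. NAM was compared with control within each line, the 9 controls were compared in 1 fit, and the interaction used all 18 libraries. A control-to-control or NAM call needed an adjusted p under 0.05 and an absolute difference above 0.58, an interaction call only the former. The scripts were tested on simulated data. Named were members called with NAM or by the interaction, the most abundant of each family, SLC1A4, the 6 widest control differences per pair of lines, and up to 4 genes per list and direction. SLC7A6, SLC38A10, SLC6A8, SLC1A3 with NAM and members called only in an alternative fit were added after their values were seen.

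Alternatives were a pseudocount of 0.1 FPKM, no filter, no quantile normalization, median scaling, limma-voom on the recovered reads, leaving out each library and the replicate number as a block. Whether replicate numbers pair the libraries was judged from the correlation across genes of their deviations from the group mean, with over 0.1 in every pair taken as pairing. It was 0.740, 0.616 and 0.716 in MDA-MB-231 and 0.706, 0.613 and 0.128 in MDA-MB-468, and the block is given beside the results it changes there (6 members called in MDA-MB-231 in place of 1). Some unmatched numbers correlated as well, up to 0.688 in MDA-MB-231 (control 2 with NAM 3) and 0.437 in MDA-MB-468 (control 3 with NAM 2), while replicate 1 correlated negatively with the others. The correlation of matched numbers in BT20 was 0.017, -0.081 and 0.100.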

Additional observations from a re-analysis of the deposited data

Results flagged for a closer look

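These members were singled out because the response to NAM differed between the lines by limma's line-by-treatment interaction, with p adjusted over all genes tested. The adjusted p was 1.45e-05 for SLC1A6, 0.000329 for SLC6A2, 0.00114 for SLC3A2, 0.00352 for SLC43A3, 0.00645 for SLC43A2, 0.00756 for SLC6A14, 0.00838 for SLC43A1 and 0.0204 for SLC6A9. SLC43A2 had pairwise interaction differences of 1.23 (SE 0.27, adjusted p = 0.0135) for MDA-MB-231 minus BT20 and 1.30 (SE 0.27, adjusted p = 0.00758) for MDA-MB-231 minus MDA-MB-468. SLC6A9 lost its call without BT20 control replicate 2 or 3 (highest adjusted p 0.0550). The other 7 kept theirs with any 1 library left out.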

How the results depend on the processing

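The count of members called with NAM was 1 in MDA-MB-231, 6 in MDA-MB-468 and 12 in BT20. With no filter on low values it was 6 in BT20. In MDA-MB-231 limma called 0 without quantile normalization (5 higher and 2 lower at an unadjusted p under 0.05), 0 with median scaling (4 and 2) and 0 with limma-voom (5 and 1), 6 with the replicate block and 6 without both replicate 1 libraries. The block took the interaction from 8 calls to 15. In BT20, where numbers did not pair the libraries, it gave 13 calls with SLC1A5 added (adjusted p = 0.0469). With each library left out in turn the counts ran from 0 to 1 in MDA-MB-231, where the 1 was without NAM replicate 1 (2 to 4 higher and 1 to 2 lower at an unadjusted p under 0.05), from 2 to 7 in MDA-MB-468, from 7 to 12 in BT20, from 12 to 23 for MDA-MB-231 against MDA-MB-468 and from 7 to 10 for the interaction. For NAM in MDA-MB-231, limma called no gene at all without replicate 2 or 3 of either group. Across the controls, same-numbered libraries correlated at 0.635, 0.429 and 0.504 for MDA-MB-231 with BT20, 0.297, 0.153 and 0.267 for MDA-MB-468 with BT20, and 0.241, -0.004 and 0.364 for MDA-MB-231 with MDA-MB-468, so that the 9 did not pair throughout. With the block there, SLC7A1 was called higher in MDA-MB-468 than in BT20 (adjusted p = 0.0246) and in MDA-MB-231 than in MDA-MB-468 (0.0166), and SLC6A6 lower in MDA-MB-231 than in BT20 (0.00193), for 20 higher and 4 lower, 8 and 12, and 13 and 8 calls in those 3 comparisons. No difference of a named member called in the main fits changed its sign in these alternatives. Between the MDA-MB-231 and BT20 controls, SLC38A3 (-2.34 to 0.10 over the fits) and SLC6A14 (-0.06 to 1.18) were called only in some alternatives and did change sign. The cause of these changes was not tested. At these depths members with under 3 reads in a line cannot be placed there.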
